A study of Mus musculus with 10 samples.

Results

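The genes described here encode 4 kinds of parts of the machinery that attaches ubiquitin to proteins: cullin scaffolds (Cul), F-box proteins (Fbxl, Fbxo, Fbxw), Kelch-like proteins (Klhl), and RING-finger (Rnf) and tripartite-motif (Trim) proteins. Members were chosen by name alone, as every gene of the deposited rate table whose symbol starts with Cul, Fbxl, Fbxo, Fbxw, Klhl, Rnf or Trim followed by a digit. This gave 148 of the 8590 genes, with 56 Rnf, 24 Klhl, 23 Fbxo, 19 Trim, 11 Fbxl, 8 Cul and 7 Fbxw genes. The name rule is a rule on symbols, and some Rnf and Fbxl proteins are not established ligases.

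Ubiquitin ligases give the ubiquitin system its choice of substrate. In cullin-RING ligases a cullin holds a RING protein at one end and a substrate adaptor at the other. F-box proteins serve as adaptors on Cul1, and many Kelch-like proteins serve as adaptors on Cul3. Most Rnf and Trim proteins instead carry their own RING domain and bind the ubiquitin-conjugating enzyme directly. In neurons these proteins are known for roles in axon growth, synapse turnover and the removal of damaged proteins.

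Cortical neurons of Fmr1-KO and wild-type mice were grown in culture and compared, both of the strain given as FVB.129P2-Pde6b+ Tyrc-ch/AntJ. Fmr1 encodes FMRP, an RNA-binding protein whose loss causes fragile X syndrome. Cortices came from embryonic day 18 and cultures were used at day 14 in vitro, after 200 µM 5-ethynyluridine, a uridine analogue that marks new RNA, had been given for 20 or 60 min. Each genotype had 1 labelled library at each time, and the deposited table gives synthesis, processing and degradation rates for these 4 libraries, from the INSPEcT method that models new and total RNA. The other 6 of the 10 samples (inputs and pull-downs of unlabelled RNA) have no rates of their own, and the labels do not say how many animals or cultures stand behind a library. The 20 and 60 min libraries therefore stood as the 2 replicates of a genotype, and p-values measure only the spread between these libraries. An exact permutation test of 2 against 2 libraries cannot give a two-sided p below 0.333.

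Values of a genotype are printed with 20 min first and 60 min second. Rates are given in the unit of the table, whose time base is not stated, and the depth behind them is unknown. Of the marker lists, 3 of 11 neuronal genes, 3 of 8 astrocyte genes, 5 of 8 oligodendrocyte-lineage genes, 0 of 6 microglial genes and 0 of 3 endothelial genes are in the table, so the rates check the labelled cell type only weakly. The ratio of synthesis to degradation rate, which is the steady-state RNA level in this model, could be formed in all 4 libraries for 1 gene of each of the first 3 lists. It came to 34.3 at both times in wild type against 10.8 and 5.44 in knockout neurons for neuronal Rbfox3. Astrocyte Aldh1l1 had 39.3 at both times against 34.1 and 29.9, and Olig2, of the oligodendrocyte lineage, had 45.7 at both times against 61.4 and 70.3. Summed over a list, the neuronal ratio was 58.7 in each wild-type library (2 genes) and 5.44 to 10.8 in the knockout (1 gene). The astrocyte sum was 71.2 (3 genes) against 29.9 to 182 (1 or 2 genes), and that of the oligodendrocyte lineage 64.3 to 64.5 (5 genes) against 61.4 to 81.3 (1 or 2 genes), so that these sums rest on different genes in the genotypes. The part of cell makeup in the knockout changes given here was not tested. In bulk RNA, fewer cells of a type and less RNA per cell cannot be told apart. Fmr1 itself had degradation rates of 0.0774 and 0.0672 in wild type (20 and 60 min) and of 2.58 and 2.66 in the knockout. Its synthesis rates were 0.810 and 0.692 against 2.06 and 1.56, higher in the knockout at both times (log2 change 1.26, limma adjusted p = 1.00), a larger change than that of any member tested. Its ratio of synthesis to degradation came to 10.5 and 10.3 in wild type against 0.80 and 0.586 in knockout neurons. The ratio and the degradation rate differed in the direction of the labels, and the synthesis rate did not.

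A pair of neighbouring F-box genes shows how differently 2 members could be recorded, and their promoters are printed because both lie in 1 short stretch of chromosome 4. Fbxo2, which binds N-linked glycans, and Fbxo44, of the same subfamily, are transcribed away from each other with 139 bases between them in the GENCODE M21 annotation (GRCm38, the assembly also called mm10). The windows run from 250 bases before to 50 bases after the RefSeq start (GRCm38.p6), each written 5′ to 3′ on the gene's own strand, and capitals mark matches, on either strand, to the GC box GGGCGG, the CCAAT box CCAAT and the ETS core CCGGAAG.
Fbxo44, chr4:148160045-148160344, minus strand: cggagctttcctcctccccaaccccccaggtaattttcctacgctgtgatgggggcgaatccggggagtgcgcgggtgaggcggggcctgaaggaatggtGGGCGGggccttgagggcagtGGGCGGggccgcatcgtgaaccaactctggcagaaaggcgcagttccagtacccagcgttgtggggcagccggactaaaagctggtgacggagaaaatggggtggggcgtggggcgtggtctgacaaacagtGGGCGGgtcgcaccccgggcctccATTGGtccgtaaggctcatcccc
Fbxo2, chr4:148160418-148160717, plus strand: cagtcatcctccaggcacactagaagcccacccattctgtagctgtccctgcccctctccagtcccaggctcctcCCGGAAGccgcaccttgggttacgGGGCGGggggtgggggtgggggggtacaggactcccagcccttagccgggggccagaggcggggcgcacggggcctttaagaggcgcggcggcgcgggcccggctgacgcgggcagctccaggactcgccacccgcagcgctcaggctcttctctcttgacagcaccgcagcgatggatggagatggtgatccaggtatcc
A GC box was present in 76.3% of the 118 member promoters that matched the RefSeq table and in 68.5% of 6677 promoters of all genes in the rate table. The CCAAT box was present in 31.4% of member promoters and 38.7% of all, and the ETS core in 22.9% and 20.0%.

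In degradation rate Fbxo44 stood at 0.134 and 0.0702 in wild type against 0.628 and 0.537 in knockout neurons (20 and 60 min). Fbxo2 had wild-type rates of 0.0803 and 0.0321 and no rate in either knockout library. Fbxo6, the next gene beyond Fbxo44 at a distance of 660 bases, had 0.341 and 0.180 in wild type against 0.633 and 0.501 in knockout neurons. Thus both knockout values of Fbxo44 and of Fbxo6 lay above both of their wild-type values, while the third gene of the cluster could not be compared.

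Members differed first in whether a rate was estimated at all. Degradation rates above 0 in all 4 libraries were present for 114 of the 148 members (77.0%), against 5716 of 8590 genes (66.5%). Both wild-type libraries gave a rate for 141 members and both knockout libraries for 116. Of the 141, 17 had no rate in either knockout library (12.1%, against 19.5% of all genes), while 2 members, Rnf167 and Rnf181, had rates in the knockout only. Fbxo17, Fbxw4, Klhl13, Rnf185 and Rnf8 had none in any library. A missing rate is not a rate of 0, so these members entered no test.

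The 17 members with wild-type rates only include adaptors, RING partners and Trim proteins. Among them, Trim2, a neuronal ligase of the neurofilament light chain, had the highest ratio of synthesis to degradation rate in wild type (37.7 at both times), with degradation rates of 0.0821 and 0.114. Klhl2, a Cul3 adaptor of the WNK kinases, followed with a ratio of 31.9 and degradation rates of 0.0908 and 0.127. Rnf5, a ligase of the endoplasmic reticulum membrane, had a ratio of 21.2 and degradation rates of 0.0792 and 0.0389. These 3 had wild-type rates at both times that were well within the range of the members tested. Rnf7, the RING partner of Cul5, and Klhl3, the paralog of Klhl2, were in the same position. The converse was seen for Rnf167, a lysosomal ligase, whose knockout degradation rates were 0.0615 and 0.0346, and for Rnf181, with 0.171 and 0.115.

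The ratio of synthesis to degradation rate also showed that the wild-type libraries are not independent estimates. In wild type this ratio was equal at 20 and 60 min, within 0.001 on the log2 scale, for 133 of 141 members (94.3%). In the knockout it was equal for 0 of 116. A shift of a wild-type member between the times therefore moved its synthesis and degradation rate by the same factor, and the spread between the 2 wild-type rates is not a full replicate error for either rate. Over the 114 members the median ratio came to 9.41 and 9.35 in wild type against 7.36 and 7.10 in knockout neurons.

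In wild type the members spanned a wide range of degradation rates, from 0.0124 to 1.19, with a median of 0.126 at 20 min and 0.154 at 60 min. The highest belonged to Fbxo33, an F-box adaptor, with 0.814 and 1.16, to Rnf139, a sterol-responsive ligase of the endoplasmic reticulum, with 0.670 and 1.19, and to Trim13, another ligase of that membrane, with 0.928 and 0.755. The lowest belonged to Cul9, a large cytoplasmic cullin that binds p53, with 0.0592 and 0.0124, to Fbxw5, with 0.0704 and 0.0131, and to Trim3, a neuronal ligase of the postsynaptic density, with 0.0461 and 0.0276. Order among members was kept between the wild-type times (Spearman's rho 0.825 across 114 members), and far less between genotypes (0.216 at 20 min and 0.427 at 60 min). Across 5716 genes of the table these values were 0.731, 0.261 and 0.376, so the pattern is not particular to the members. These correlations run across genes that share libraries and describe these 4 libraries only.

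A short AU-rich element is a known mark of unstable transcripts, and its core TATTTAT was searched on the transcript strand of the 3′ untranslated regions of GENCODE M21. It occurred in 52 of 146 members with a coding transcript (35.6%) and in 2513 of 8320 genes (30.2%). The median length searched was 1381 bases in members and 1104 in all genes, and the shares are not adjusted for length. Of the highest and lowest members named above, Trim13, Cul9 and Fbxw5 lack the core. The sites of the members with the 2 highest wild-type rates and of 1 of the lowest are shown, since the element was present at both ends of the range (30 bases, GRCm38, the core in capitals).
Fbxo33, chr12:59200958-59200987, minus strand: agatatgattcTATTTATggaaaaagttta
Rnf139, chr15:58901480-58901509, plus strand: taactattttaTATTTATaaataaaatata
Trim3, chr7:105610876-105610905, minus strand: cggttgcacttTATTTATtcggttcttgct
The 43 members with the core and all 4 rates had a median wild-type degradation rate of 0.127 at 20 min and 0.188 at 60 min. The 70 members without it had 0.127 and 0.140, so medians were level at 20 min and higher with the core at 60 min. In the knockout the medians were 0.216 and 0.273 with the core, and 0.214 and 0.239 without it.

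Exon number tracked the wild-type rates more closely than the number of AU-rich cores did (Spearman's rho 0.09 across 113 members). Members whose coding transcript has 1 to 3 exons (n = 19) had median degradation rates of 0.302 and 0.462 in wild type, and those with 4 to 8 exons (n = 36) had 0.192 and 0.216. Medians were 0.0964 and 0.123 for 9 to 12 exons (n = 32) and 0.0740 and 0.0712 for 13 or more (n = 26). Across 113 members, Spearman's rho between exon number and wild-type degradation rate was -0.56, against -0.45 across 5555 genes of the table. In the knockout it was -0.33 for members and -0.25 for all genes, and the medians from fewest to most exons were 0.216, 0.283, 0.234 and 0.156 at 20 min. The order by exon number seen in wild type was thus not kept in the knockout, where members with 1 to 3 exons no longer had the highest median.

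**Figure D1:**
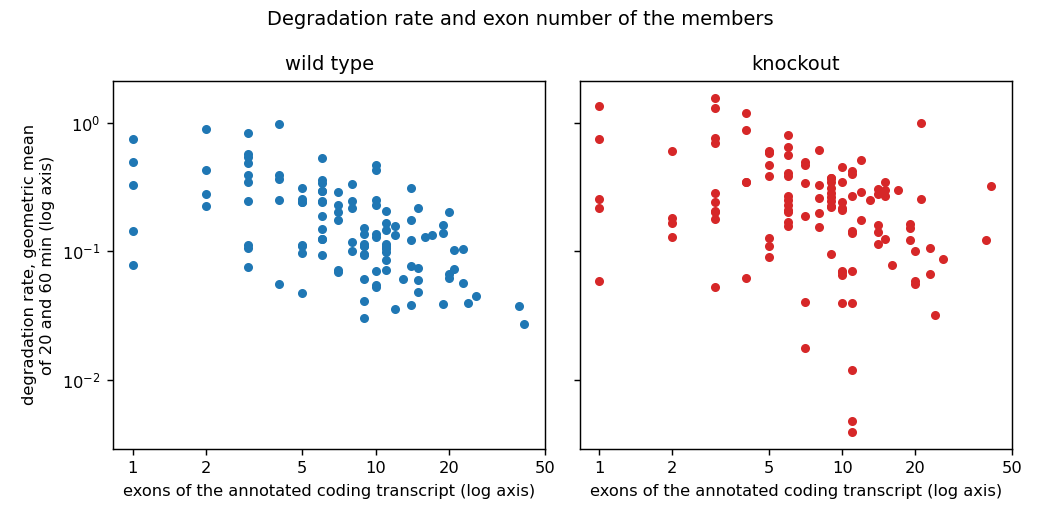
Degradation rate (geometric mean of the 20 and 60 min rates, log axis) against the exon number of the annotated coding transcript (log axis) for 113 members, in wild type (left) and knockout (right); each point is 1 member. The wild-type points fall from left to right (rho -0.56), and the knockout points do so less (rho -0.33).

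As deposited, the degradation rates of most members had higher values in the knockout. Of 114 members tested with limma and Benjamini-Hochberg adjustment over 5716 genes, 22 rose (19.3%) and 1 fell (0.877%) at an adjusted p under 0.05. The background was close to this, with 20.5% of all genes called higher and 2.57% called lower. The median log2 change was 0.62 over members (0.77 at 20 min and 0.55 at 60 min) and 0.65 over all genes, and 74 of 114 members lay above 0. At both times 68 members were above 0 and 34 below, while 12 changed in opposite directions. Shares this close to the background are no result about the families, and the account below concerns which members moved.

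These counts depend on how libraries are scaled and paired. With labelling time as a replicate block, 46 members rose and 14 fell, where 38.2% and 9.76% of all genes were called. With each library centred on its median, which takes 0.857 off every log2 change, 0 members were called in limma (43 at an unadjusted p under 0.05), against 0.56% of genes higher and 1.05% lower, and the member median became -0.24. With block and centring together 15 members rose and 27 fell, against 13.9% and 22.4% of genes. The authors' deposited table, a limma fit of their own, called 32 members higher and 8 lower, against 29.2% and 7.09% of its genes. The unadjusted count after centring has no share of all genes beside it and is no result about the members. Leaving out a library leaves its genotype without a replicate, so the spread then comes from the other genotype alone. Calls of such fits are therefore not given, and their median changes are given below. The smallest of the 22 called rises was 1.45, so taking off 0.857 had to leave all of them above 0, by 0.60 to 2.92. This tests nothing, and their adjusted p in limma with centring was 0.0502 to 0.272.

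Among the cullins, 6 of 8 were tested and 1 rose. Cul9 (chr17:46500572-46546388, 41 exons) had degradation rates of 0.0592 and 0.0124 in wild type against 0.345 and 0.303 in knockout neurons (log2 change 3.58 ± 0.83 SE; limma adjusted p = 0.0474). The groups did not overlap, and the wild-type times lay further apart than the knockout times. Cul2, the scaffold of the von Hippel-Lindau ligase, had 0.0971 and 0.109 in wild type against 0.239 and 0.277 in knockout neurons (log2 change 1.33, limma adjusted p = 0.0521). With the time block its adjusted p was 0.0255.

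Cul7, which forms a ligase with Fbxw8, had a log2 change of 0.95 (limma adjusted p = 0.292). Cul3, the scaffold of Kelch-like adaptors, had 0.112 and 0.150 in wild type against 0.0770 and 0.0787 in knockout neurons, a log2 change of -0.73 (limma adjusted p = 0.179). It was thus the 1 tested cullin below 0, with knockout values under both wild-type values. Cul4b and Cul5 had log2 changes of 0.24 and 0.13, with opposite signs at the 2 times. Cul1, the scaffold of F-box adaptors, lacked the 60 min knockout rate, with 0.0740 and 0.0517 in wild type and 0.0581 in the knockout at 20 min. Cul4a lacked the 20 min knockout rate, and neither gene entered the test.

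F-box adaptors with leucine-rich repeats had the highest family median, 1.17 over 11 members, with 3 rises. Fbxl2 (chr9:113963637-114046191) had 0.0710 and 0.0335 in wild type against 0.352 and 0.337 in knockout neurons (log2 change 2.82 ± 0.48 SE; limma adjusted p = 0.0286). Its exons overlap Ubp1 on the opposite strand, and whether the authors' counting used strand is not stated in the sources used here. Fbxl20, known for degrading the presynaptic protein Rim1, rose from 0.0702 and 0.0777 to 0.280 and 0.258 (log2 change 1.86, limma adjusted p = 0.0286). Fbxl4, a mitochondrial F-box protein, rose by 1.45 (limma adjusted p = 0.0489).

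Not every value of this family lay above 0. Fbxl5, the iron-sensing adaptor of Irp2, had 0.242 and 0.173 in wild type against 0.0733 and 0.00195 in knockout neurons. Its log2 change of -4.09 had an SE of 1.81 (limma adjusted p = 0.160), since the knockout times lay far apart.

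Of the 17 Fbxo genes tested, 6 rose and 0 fell, with a median of 0.63. Fbxo44 (chr4:148152800-148160482), whose values and promoter are given above, had a log2 change of 2.58 with an SE of 0.45 (limma adjusted p = 0.0286), while Fbxo6 had 1.19 (limma adjusted p = 0.122, and 0.0411 with the block). Fbxo25 (chr8:13907803-13940522) had 0.0608 and 0.0852 in wild type against 0.423 and 0.373 in knockout neurons (log2 change 2.46 ± 0.36 SE; limma adjusted p = 0.0236). Its knockout values exceeded its wild-type values with a wide gap.

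Fbxo31, an adaptor known for degrading cyclin D1 and for a role in axon growth, had 0.0647 and 0.0574 in wild type against 0.229 and 0.219 in knockout neurons (log2 change 1.88, limma adjusted p = 0.0282). Fbxo3, Fbxo9 and Fbxo41 rose by 2.29, 2.03 and 1.57. In contrast, Fbxo45, a synaptic adaptor that works with Mycbp2, had 0.246 and 0.244 in wild type against 0.170 and 0.189 in knockout neurons (log2 change -0.45, limma adjusted p = 0.331). Fbxo11 was at 0.0750 and 0.146 in wild type and at 0.0781 and 0.145 in the knockout, with a log2 change of 0.03 ± 0.54 (SE). Fbxo7, mutated in a form of parkinsonism, had 1.16 (limma adjusted p = 0.103, and 0.0365 with the block).

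Of the 5 Fbxw genes tested, limma called 0 (2 at an unadjusted p under 0.05), and the median was 0.40. Fbxw5 had 0.0704 and 0.0131 in wild type against 0.305 and 0.260 in knockout neurons (log2 change 3.22 ± 0.88 SE; limma adjusted p = 0.0645), which with the time block had an adjusted p of 0.0223. Fbxw17 had the opposite sign, with 0.636 and 0.290 in wild type against 0.116 and 0.0135 in knockout neurons (log2 change -3.44, limma adjusted p = 0.0967, and 0.0173 with the block). Fbxw7, the adaptor of Notch, Myc and cyclin E, had 0.229 and 0.420 in wild type against 0.188 and 0.410 in knockout neurons. Its change of -0.16 ± 0.58 (SE) was smaller than the gap between the times. Fbxw11, an adaptor of beta-catenin and IkB, had 0.40 (limma adjusted p = 0.531).

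Kelch-like adaptors were split. Of 17 tested, 2 rose and 1 fell, 9 lay above 0, and the median was 0.49. Klhl36 (chr8:119862266-119876995) had 0.0923 and 0.134 in wild type against 0.562 and 0.616 in knockout neurons (log2 change 2.41 ± 0.36 SE; limma adjusted p = 0.0246). Klhl20, a Cul3 adaptor of the kinase Dapk1, had 0.125 and 0.199 in wild type against 0.473 and 0.554 in knockout neurons (log2 change 1.70, limma adjusted p = 0.0470). In both genes the knockout values lay above both wild-type values.

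Klhl22 (chr16:17759618-17793382), a Cul3 adaptor known for degrading the mTORC1 regulator Depdc5, was the 1 member called lower. It had 0.0731 and 0.0695 in wild type against 0.0127 and 0.0245 in knockout neurons (log2 change -2.01 ± 0.45 SE; limma adjusted p = 0.0441). Both knockout values lay below both wild-type values. With a trend in the variance its adjusted p was 0.112, with quantile normalization 0.0559 and with centring 0.0517, while the block left it at 0.0213. Klhl12, a Cul3 adaptor of the coat protein Sec31, had 1.11 (limma adjusted p = 0.0816, and 0.0366 with the block), and Klhl9 had -0.61 (limma adjusted p = 0.220). Klhl17 had 0.49 (limma adjusted p = 0.619).

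RING-finger ligases formed the largest family, with 7 rises and 0 falls among 43 tested and a median of 0.47. Rnf31 (chr14:55591708-55603693), the catalytic subunit of the complex that builds linear ubiquitin chains, had degradation rates of 0.0530 and 0.0988 in wild type against 1.01 and 0.98 in knockout neurons. This was the largest rise of any member tested, with a log2 change of 3.78 with an SE of 0.44 (limma adjusted p = 0.0235). Its exons overlap Irf9 on the same strand, so reads of the 2 genes could be shared.

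Rnf126 (chr10:79758515-79766952), a quality-control ligase of mislocalized proteins, had 0.0487 and 0.0352 in wild type against 0.393 and 0.356 in knockout neurons (log2 change 3.18 ± 0.35 SE; limma adjusted p = 0.0235). Rnf32 (chr5:29195992-29228457) had 0.0518 and 0.0549 in wild type against 0.563 and 0.366 in knockout neurons (log2 change 3.09 ± 0.38 SE; limma adjusted p = 0.0235). Rnf128 (chrX:139563316-139673145), a membrane ligase known from T-cell anergy, had 0.0545 and 0.0883 in wild type against 0.484 and 0.497 in knockout neurons (log2 change 2.82 ± 0.39 SE; limma adjusted p = 0.0235). In each of the 3 the groups were separate. Rnf126 overlaps Fgf22 on the opposite strand. Rnf166, Rnf157 and Rnf208 rose by 2.08, 2.06 and 1.70.

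Other Rnf genes with well known roles were not called in the fit without the block. Rnf2, the ligase of Polycomb complex 1, had 0.166 and 0.361 in wild type against 0.483 and 0.772 in knockout neurons (log2 change 1.32, limma adjusted p = 0.140), and with the time block its adjusted p was 0.0298. Rnf20 and Rnf40, which together ubiquitinate histone H2B, had log2 changes of -0.14 and 0.58. Rnf168, which marks DNA breaks, had -0.37 (limma adjusted p = 0.558). The signalling ligases Rnf146, of axin, and Rnf111, of the TGF-beta pathway, had -0.07 and 0.47, Rnf41 had 0.61 and Rnf11 had 0.93. Rnf139, near the top in wild type, had 0.460 and 0.793 in the knockout and a log2 change of -0.57 (limma adjusted p = 0.429).

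Of 15 Trim genes tested, 3 rose and 0 fell, with a median of 1.04. Trim67 (chr8:124793092-124834713), which binds the netrin receptor Dcc, had 0.0649 and 0.0759 in wild type against 0.335 and 0.361 in knockout neurons (log2 change 2.31 ± 0.32 SE; limma adjusted p = 0.0235). Trim3 had 0.0461 and 0.0276 in wild type against 0.187 and 0.167 in knockout neurons (log2 change 2.31 ± 0.40 SE; limma adjusted p = 0.0287). Trim46, which orders microtubules at the axon initial segment, had 0.0525 and 0.0577 in wild type against 0.246 and 0.240 in knockout neurons (log2 change 2.14 ± 0.31 SE; limma adjusted p = 0.0239).

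The separation of the groups was wide in all 3. Exons of Trim67 overlap a predicted gene on the same strand, and those of Trim46 overlap Krtcap2 on the opposite strand. Trim33, a ligase of Smad4, had 0.156 and 0.259 in wild type against 0.0287 and 0.121 in knockout neurons (log2 change -1.77, limma adjusted p = 0.171), and its adjusted p with the time block was 0.0361. Trim26 had a log2 change of -1.82 (limma adjusted p = 0.0632, 0.0244 with the block and 0.0452 with quantile normalization). Trim8 had 1.14 (limma adjusted p = 0.0717, and 0.0345 with the block), Trim24 had -0.38 and Trim37 -0.30. With block and centring together, limma also called lower 7 members named here that it did not call with the block alone, with an adjusted p of 0.0396 for Trim24, 0.0435 for Trim37, 0.0323 for Cul3, 0.0336 for Klhl9, 0.0375 for Fbxo45, 0.0336 for Rnf139 and 0.0457 for Rnf168. Rises given above with the block lost their call there: Cul2 (limma adjusted p = 0.210), Fbxo6 (0.419), Fbxo7 (0.412), Klhl12 (0.457), Rnf2 (0.240), Trim8 (0.401) and Fbxw5 (0.0621). So did the rises called without the block of Fbxl4 (0.136), Klhl20 (0.0825), Fbxo41 (0.0981), Rnf208 (0.0752), Fbxl20 (0.0555), Fbxo31 (0.0537) and Fbxo9 (0.0514).

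**Figure D2:**
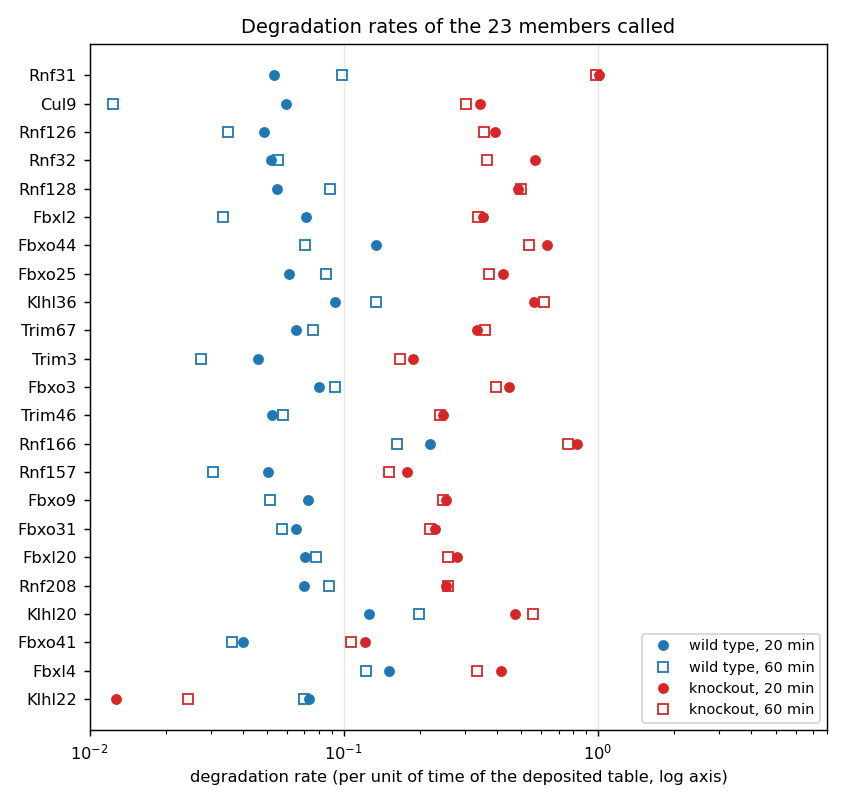
Degradation rate (log axis, unit of the deposited table) of the 22 members called higher and the 1 called lower, ordered by log2 change, with 1 point for each of the 4 libraries (blue wild type, red knockout; circles 20 min, squares 60 min). In each row the 2 knockout points lie on the same side of the 2 wild-type points, to the right for all but Klhl22. Members were called from these same 4 values, so the separation follows in part from the call and tests nothing.

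The 22 members called higher had wild-type rates between 0.0124 and 0.218 and knockout rates between 0.106 and 1.01. Their median wild-type mean was 0.0709, and that of the 91 members not called was 0.173. The knockout medians were 0.361 and 0.209. Wild-type rates are part of the change itself, so these medians describe the members called and test nothing. The separation of the groups noted above for called members likewise follows in part from the call, which uses the same values. How many genes of the table have separate groups was not counted. The most negative change, singled out after its values were seen, was not called. Klhl5 had 0.101 and 0.114 in wild type against 0.0552 and 0.000284 in knockout neurons. In that gene 1 knockout library gave a rate near 0, and the SE exceeded 2 on the log2 scale. The authors' deposited table gives -1.03 for Klhl5, against -4.76 here, and -1.60 for Fbxl5, against -4.09 here.

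**Figure D3:**
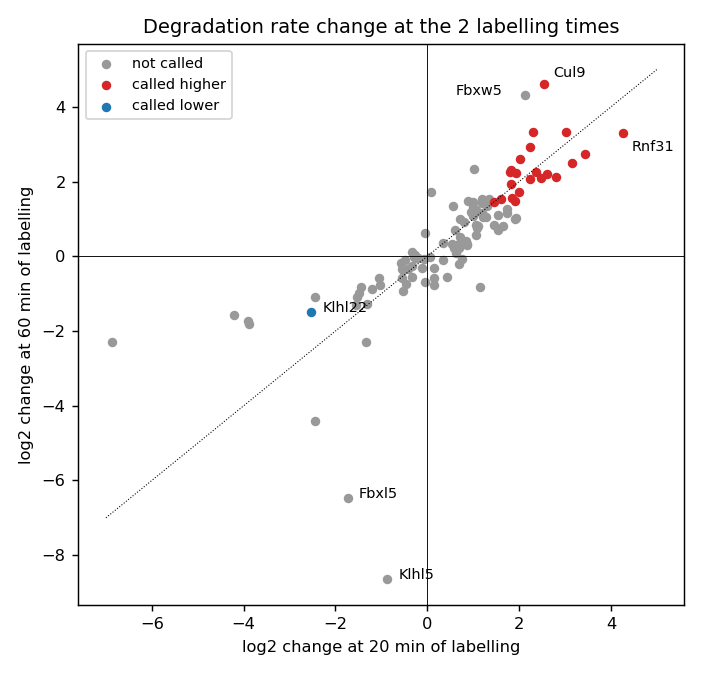
Log2 change of the degradation rate (knockout minus wild type) at 20 min (x axis) and at 60 min (y axis) for 114 members, coloured by call; the dotted line marks equal changes. Called rises lie nearer the line than Fbxl5 and Klhl5, whose falls differ between the times. Not all of them lie close to it, as Cul9 changed by 2.54 at 20 min and 4.61 at 60 min. Members were called from these same values, so the nearness of called rises to the line follows in part from the call and tests nothing.

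**Figure D4:**
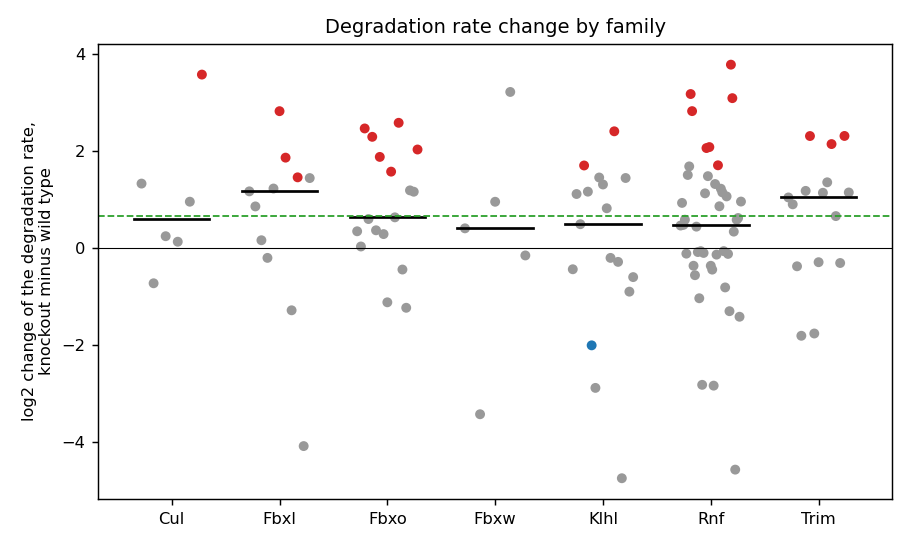
Log2 change of the degradation rate for each tested member by family (red called higher, blue called lower, grey not called), with the family median as a black bar and the median of all 5716 genes, 0.65, as a dashed green line. Bars of Fbxl (1.17) and Trim (1.04) lie above the dashed line and those of Fbxw, Klhl and Rnf (0.40 to 0.49) below it.

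Genes that work with these families were counted as well. Of 21 listed partners of cullin-RING ligases in the table (among them RING subunits, exchange factors, the COP9 signalosome and substrate receptors), 11 were tested, 1 rose and 0 fell, with a median log2 change of -0.20, where 20.5% of all genes rose, 2.57% fell and the median was 0.65. With the time block 2 of the partners rose and 3 fell, where 38.2% and 9.76% of all genes did. With block and centring together, where 13.9% and 22.4% of all genes did, limma called no partner higher. Rbx1, Cand2 and Cops6 stayed called lower, and Dcun1d4 and Vhl were called lower as well (limma adjusted p = 0.0323 and 0.0398). The riser without the block was Cops8, a subunit of the signalosome that removes Nedd8 from cullins, with 0.0568 and 0.0681 in wild type against 0.186 and 0.227 in knockout neurons (log2 change 1.72). Its limma adjusted p with block and centring was 0.0691. Rbx1, the RING subunit of most cullin ligases, had 0.142 and 0.157 in wild type against 0.0575 and 0.0623 in knockout neurons (log2 change -1.32, limma adjusted p = 0.0508, and 0.0258 with the block). Of 30 other ligases in the table, 22 were tested and 3 rose: Hace1 by 2.05, Ubr2 by 1.77 and Cbl by 1.76, with 0 falls and a list median of 0.39. With the block 6 of them rose and 3 fell, among the latter Itch (log2 change -1.64, limma adjusted p = 0.0212 with the block). With block and centring together, Hace1 alone of these risers stayed called (limma adjusted p = 0.0422). In that fit Itch, Smurf2 and March5 stayed called lower. Nedd4l, Siah1a and Siah2 were called lower as well (limma adjusted p = 0.0417, 0.0328 and 0.0380).

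Synthesis rates of the members showed no difference that passed the test. In limma with Benjamini-Hochberg adjustment 0 of 114 members were called, as were 0% of 5794 genes. At an unadjusted p under 0.05 there were 0 members, against 0.311% of genes, and the authors' deposited table called 0 members as well. The member median log2 change was 0.02, and 107 of 114 members lay within 0.5 of 0. The spread of the change over members (SD) was 0.32 for synthesis and 1.59 for degradation.

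The 3 largest positive synthesis changes among members above 0 at both times follow, none of them called. Rnf32 had synthesis rates of 0.0955 and 0.101 in wild type against 0.397 and 0.115 in knockout neurons, so that its log2 change of 1.12 came mostly from the 20 min library. Rnf31 had 0.273 and 0.508 in wild type against 0.738 and 0.649 in knockout neurons (log2 change 0.90), and Rnf128 had a log2 change of 0.56. Fbxl15 had a larger value than Rnf31, 0.93, but from changes of 1.90 at 20 min and -0.04 at 60 min, beside degradation changes of 1.14 and -0.83 at these times. The most negative changes, below 0 at both times, were those of Trim26, Rnf150 and Fbxo46, with log2 changes of -0.49, -0.48 and -0.45. In wild type the most strongly synthesized members were Klhl9 (8.004 and 8.56), Fbxw7 (5.94 and 10.9) and Fbxl14 (7.38 and 8.26), and the least were Rnf32, Rnf128 (0.141 and 0.228) and Fbxo7 (0.308 and 0.183). Across 113 members the synthesis change correlated with transcript GC content (Spearman's rho -0.50, against -0.38 across 5613 genes), a description across genes that share libraries. GC content was singled out among several transcript features. Its rho with the degradation change was 0.31 for members and 0.31 for all genes, and with the processing change -0.10 and 0.03.

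Processing rates, which measure how fast introns leave the new transcript, were mostly lower in the knockout. All 4 rates were present for 102 members, and 75 of them lay below 0, 67 at both times. The median log2 change was -0.44 (all genes -0.36). In limma 0 members passed an adjusted p under 0.05, as did 0% of 5082 genes. At an unadjusted p under 0.05 there were 18 members, 17 of them lower, against 15.4% of genes, and the authors' deposited table called 0 members. With labelling time as a replicate block 27 members fell (26.5%) and 1 rose (0.98%), against 19.3% and 6.26% of genes. With block and centring 9 fell and 4 rose, against 6.4% and 7.14%. Fits that leave out a library are given below by their medians only.

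The 27 members lower with the block included 12 Rnf, 5 Klhl, 5 Trim, 2 Fbxl, 1 Fbxo, 1 Fbxw and 1 Cul gene. Rnf123, a ligase known for degrading p27, had the largest fall, from 67.9 and 18.3 in wild type to 10.5 and 2.04 in the knockout (log2 change -2.93, adjusted p = 0.00803 in limma with the time block and 0.261 without it). In the authors' deposited table its change is -1.82, smaller than those of Trim41 (-2.41) and Trim67 (-2.33) there. Both wild-type values lay above both knockout values, and within each genotype the 20 min value was higher. Its exons overlap Gmppb and Mst1 on the opposite strand. Trim41 had 22.0 and 13.8 in wild type against 4.45 and 2.38 in knockout neurons (log2 change -2.42, limma with the block adjusted p = 0.00874). Trim67 had 45.9 and 53.7 in wild type against 7.97 and 12.2 in knockout neurons (log2 change -2.33, limma with the block adjusted p = 0.00953).

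Of the members called higher for degradation, 18 had all 4 processing rates, and 14 of these had a processing change below 0, a share close to the 75 of 102 over all members tested. Trim3 had 18.8 and 11.2 in wild type against 6.07 and 2.96 in knockout neurons (log2 change -1.78). Rnf128 had 51.0 and 82.7 in wild type against 22.2 and 24.6 in knockout neurons (log2 change -1.47). Klhl36 had 12.3 and 17.9 in wild type against 3.44 and 5.51 in knockout neurons (log2 change -1.77). These 3 are examples with separate groups in both rates, which for degradation follows in part from the call. Both rates come from the same 4 libraries and 1 model, so the second adds no independent sample.

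Others did not share the pattern. Trim46 had processing rates of 4.61 and 5.07 in wild type against 5.10 and 4.73 in knockout neurons (log2 change 0.02), and Klhl20 had -0.02. Fbxw7, whose wild-type processing rates of 57.4 and 105 had the highest mean on the log2 scale of any member, had 21.4 and 48.6 in the knockout (log2 change -1.27), beside a degradation change near 0. Cul7 had 16.2 and 6.13 in wild type against 5.92 and 1.92 in knockout neurons (log2 change -1.56), and was the 1 cullin called with the block.

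Rnf31 went the other way. Its processing rates were 3.95 and 7.35 in wild type against 28.4 and 25.1 in knockout neurons (log2 change 2.31 ± 0.48 SE; limma adjusted p = 0.148, and 0.0144 with the block). It thus had the largest rise of both degradation and processing rate among the members tested, with both groups separate, and the overlap with Irf9 noted above applies here too. Rnf32 and Trim39 had log2 changes of 1.13 and 0.95. The lowest wild-type processing rates were those of Rnf32 (0.567 and 0.602), Fbxl15 (0.354 and 1.35) and Fbxl6 (1.29 and 0.872), and the other high ones were those of Rnf128 and Rnf152 (33.0 and 76.0). The 5 members whose coding model has 1 exon, Fbxl14, Klhl9, Rnf113a2, Rnf208 and Rnf26, have no intron in that model, and 0 of them had a processing rate. Other transcripts of these genes were not examined. In all, 12 members had 4 degradation rates and not 4 processing rates, among them Fbxl20 (15 exons) and Fbxo7 (9 exons).

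**Figure D5:**
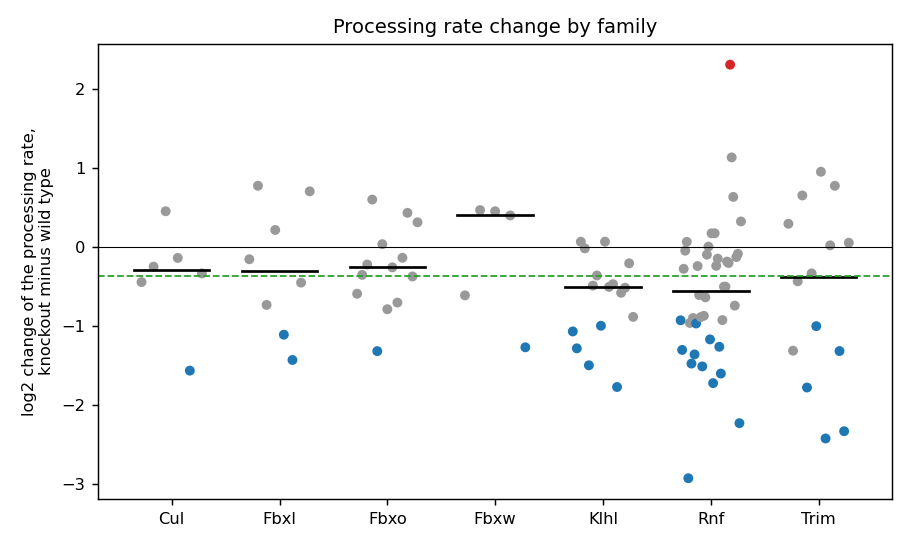
Log2 change of the processing rate (knockout minus wild type) for 102 members by family, with blue and red for members called lower (27) and higher (1, Rnf31) in limma with labelling time as a block, grey for the rest, family medians as black bars and the median of all 5082 genes, -0.36, as a dashed green line. Most points lie below 0, and the Klhl, Rnf and Trim bars lie below the dashed line, that of Trim close to it.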

How the data were processed

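Members and lists were chosen with earlier results of these data known. The authors deposited linear signal values, the synthesis, processing and degradation rates of the 4 labelled libraries. They also deposited, per the file headers, limma tables of log2 changes with p-values and score columns (moderated statistic, log odds), of which the scores were not used here. Per the submitters' processing notes, cutadapt, Bowtie2, TopHat2, HISAT2 and limma and the builds mm10, dm6 and sacCer3 were used, with no role given. Labelled fly RNA and yeast RNA were spiked in, per the labels' protocols; how they enter the rates is not given in the sources used here. No read counts were used, so precision by depth is unknown, and 0 columns of per-sample values were left out.

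For each rate, genes above 0 in all 4 libraries were compared on the log2 scale, without a pseudocount, by limma 3.58.1 (R 4.3.3, two-sided moderated test, Benjamini-Hochberg over all genes tested, threshold 0.05). The fit was tested on simulated data. Between genotypes, the 20 to 60 min difference of members correlated (Spearman's rho 0.725 in degradation, and 0.776 in each of the other rates); a fit with labelling time as a block was run beside it. Labelling time is what these pairs share by their labels, and whether they also share a culture or preparation is not given in the sources used here. Other alternatives were centring, quantile normalization, a filter on low rates, a pseudocount, a variance trend, a threshold of 0.01, leaving out each library and the deposited fits. Named were Fmr1, the 10 largest called rises and falls in degradation, the 3 largest rises and falls of the other rates (each with the same sign at both times), cullins, members with well known roles, the 3 highest and lowest wild-type rates and members missing in 1 genotype; the remaining called members were added after their values were seen. Positions, exons and 3′ untranslated regions are from GENCODE M21, matched for 147 members (Klhl17 unmatched, Fbxo18 by a synonym), and promoters are from RefSeq.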

Additional observations from a re-analysis of the deposited data

How the results depend on the processing

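For degradation, 22 members were called higher and 1 lower. With labelling time as a replicate block, the counts were 46 and 14, and all 23 calls were shared. Centring gave 0 and 0 and a threshold of 0.01 gave 0 and 0, quantile normalization gave 6 and 3 (6 shared), and block with centring gave 15 and 27 (16 shared). The lower count was 2 without low rates, 5 with a pseudocount, 2 with a variance trend and 8 in the authors' deposited table, where the higher counts were 25, 33, 29 and 32. Shares of all genes are given above for the block, centring, both together and the deposited table. For the other settings they are not given, so those counts are no result about the families. Leaving out each library gave 0 to 19 higher and 0 to 3 lower. The cause of the changes under centring and quantile normalization was not tested; a fit of 3 libraries has fewer samples.

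The member median of the degradation change was -0.24 with centring, with or without the block, and 0.000207 with quantile normalization. It ran from 0.56 to 0.80 without each library. The synthesis median ran from -0.045 (without the wild-type 20 min library) to 0.16, and 0 members were called under every alternative run. For processing, the paired fit (time block) called 1 higher and 27 lower, and 4 and 9 with centring. Calls of the fits without a library are left out here too. The processing median was -0.089 with centring, with or without the block, -0.086 with quantile normalization, -0.50 without low rates and -0.30 with a pseudocount, and ran from -0.64 to -0.32 without each library.

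Depth is unknown, each genotype has 2 libraries that differ in labelling time, and the wild-type pair shares its ratio of synthesis to degradation, so no p-value here rests on independent cultures that the labels name. Centring of libraries turned the sign of the median degradation change, and in the fit without the block it ended the calls. With the block, calls in both directions remained after centring. What part the spike-ins had in the scale was not tested.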

Other observations

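The change at 20 min and the change at 60 min were correlated across members for degradation (Spearman's rho 0.91, 114 members), less for processing (0.81, 102 members) and least for synthesis (0.32, 114 members); both changes come from 1 library per genotype and the points share those libraries. Opposite signs at the times were found for 12 of 114 members in degradation and for 44 of 114 in synthesis. Of the named members, Rnf146 had degradation changes of 0.42 at 20 min and -0.56 at 60 min, and Fbxl15 had processing changes of 1.75 and -0.20. The difference between the times was not tested, since each time has 1 library per genotype.

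Apart from the Fbxo44 cluster, few members lie close together. Fbxo45 and Rnf168 lie 30301 bases apart on chromosome 16, and their degradation changes were -0.45 and -0.37. Trim17 lies 4995 bases from Trim11 on chromosome 11 and had no knockout rate. An exon of 11 members overlaps another gene on the same strand, and 42 overlap one on the opposite strand.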
